A study of Mus musculus with 12 samples.

Results

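The ascending aorta of mice with normal Fbn1 was compared between animals labelled as Tgfbr2 knockouts and controls, on 3 arrays per group and across 14944 annotated genes. These 6 arrays were chosen by their titles, Myh11-CreERT2.Tgfbr2f/f Knockout 1 to 3 and Control 1 to 3, out of 12 arrays in the series. The other 6 carry the Fbn1 C1039G/+ allele, which models Marfan syndrome, with the same pair of treatments. All mice had both copies of Tgfbr2 floxed and carried Myh11-CreERT2, a tamoxifen-activated Cre recombinase under the Myh11 promoter, which is active in smooth muscle. Knockout mice received intraperitoneal tamoxifen, 1 mg a day for 5 days starting at 4 weeks of age, control mice received corn oil, and aortas were taken at 6 weeks. No control received tamoxifen, so the effect of the drug and that of deleting Tgfbr2 cannot be told apart. Titles and characteristics name Tgfbr2 throughout, although the description fields of knockouts 2 and 3 name other receptor numbers. The labels do not say whether each array is a separate animal, so p-values measure only the spread between these samples, which may be technical.

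TGF-beta ligands are secreted in a latent form held in the matrix, and once freed they join the type II receptor, which Tgfbr2 encodes, to the type I receptor, which Tgfbr1 encodes. The receptor pair phosphorylates SMAD proteins, which enter the nucleus and switch on matrix, contractile and feedback genes. In the aortic wall the pathway is known for its part in smooth muscle differentiation and in aneurysm disease.

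Levels are log2 of the deposited array intensity, changes are knockout minus control on that scale with limma's standard error (3 arrays per group), and a gene counts as called at a limma adjusted p under 0.05. In all, 2814 of 14944 genes were called (18.8%), of which 1370 were higher (9.17%) and 1444 lower (9.66%) in knockouts. Counts for the gene lists below are to be set beside these shares. Both directions were about equally frequent, but large changes were mostly upward. Of the upward calls 90 were at least 2-fold, against 11 of the downward calls, while 313 upward and 557 downward calls were below 0.25. The median size of a called change was 0.31. The groups did not overlap in 5349 genes (35.8%), called or not. The total was 1874 without knockout 1 and 1836 without knockout 3, and the downward calls numbered 798 and 852 there and 931 without control 2. Median intensity per array lay between 300.9 and 316.9 and precision is limited by the few arrays. A principal component with 63.5% of the variance of the 6 arrays set controls (scores of -14.1 to -13.8) apart from knockouts (11.4 to 15.9). The Y-linked gene Eif2s3y lay between 10.75 and 10.91 in all 6 arrays. Called genes were spread over the genome, from 16.3% of tested genes on chromosome 7 to 22.5% on chromosome 3 among the autosomes.

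Tgfbr2 itself, read by 1 probe set, had levels of 11.96, 11.96 and 11.94 in controls 1 to 3 and of 11.88, 11.95 and 11.79 in knockouts 1 to 3. Knockout 2 lay within the range of the controls and the other knockouts below it. The difference of -0.08 gave an exact two-sided permutation p of 0.2, where 3 arrays against 3 allow no p below 0.1, and limma's adjusted p was 0.324. Where on the transcript the probes lie relative to the deleted part was not analysed here, and the aorta holds cells in which this Cre is not active, so this level does not check the deletion. The defining smooth muscle markers Acta2, Tagln, Cnn1 and Myh11 were bright in all 6 arrays, between 13.93 and 14.57.

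**Figure D1:**
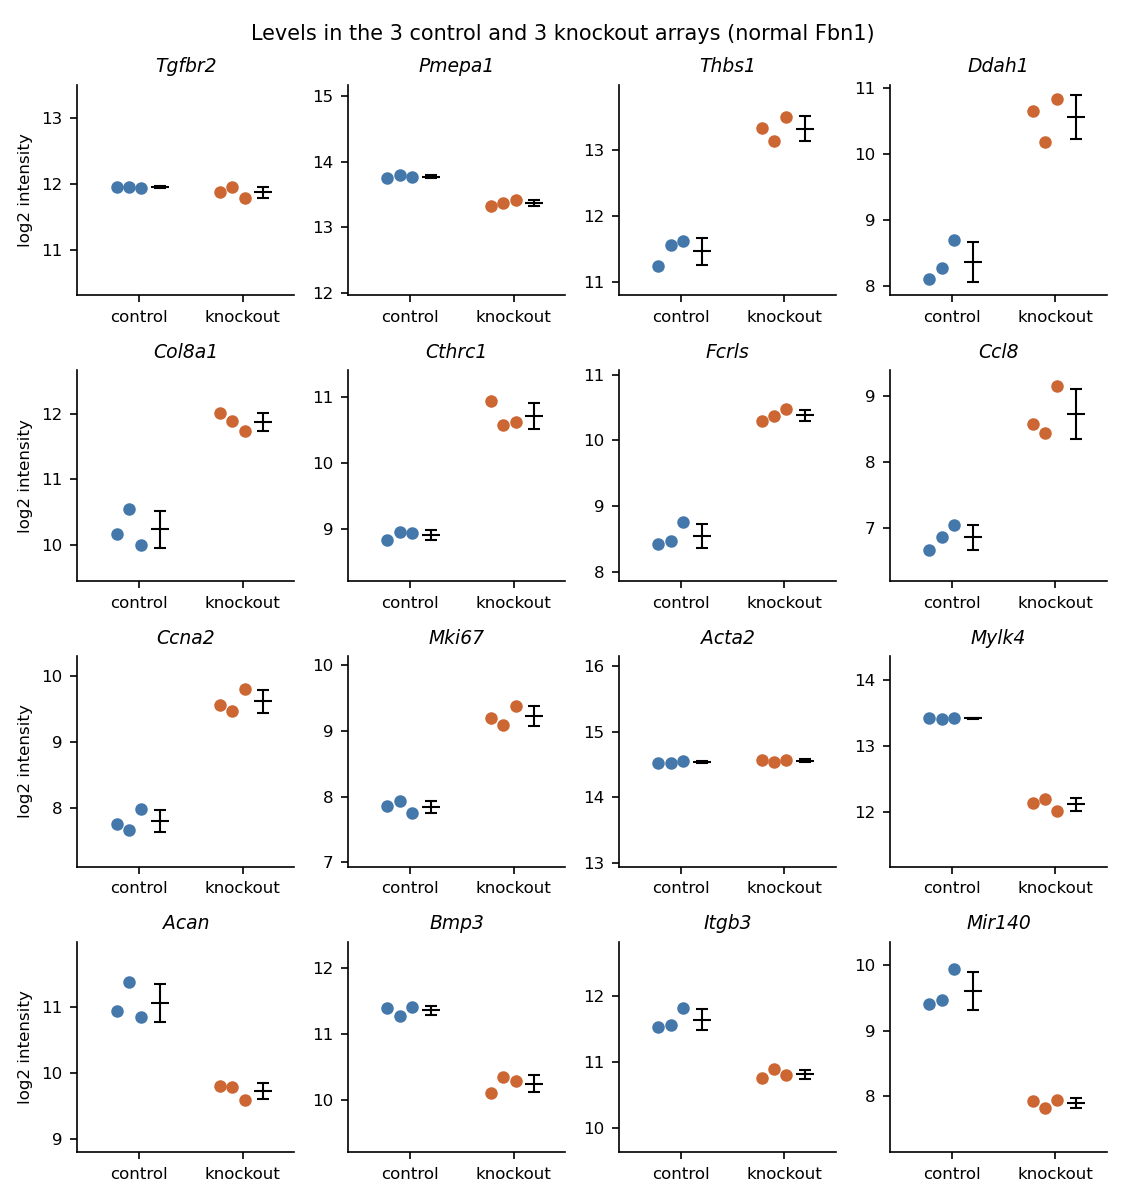
Log2 intensity of 16 genes in the 3 control arrays and the 3 knockout arrays of mice with normal Fbn1, with the mean and SD of each group as bars and the same span of 3.2 log2 units on each axis. The knockouts lie above the controls for Ddah1 (change 2.20) and below them for Mir140 (-1.70), while Tgfbr2 (-0.08) and Acta2 (0.02) differ little.

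Among genes of the TGF-beta pathway, 6 of 11 receptors and 5 of 10 feedback inhibitors fell in knockouts. Of 40 pathway members tested 5 rose and 15 fell, with a median of -0.08 against -0.009 over all genes tested. Pmepa1, a SMAD target that restrains the pathway, stood at 13.75, 13.79 and 13.77 in controls and at 13.33, 13.37 and 13.41 in knockouts. Its groups did not overlap, and it fell by 0.40 ± 0.05 (adjusted p 0.000153). Ldlrad4, which restrains SMAD activation, went from 12.24, 12.33 and 12.13 to 11.65, 11.72 and 11.6, and fell by 0.58 ± 0.07. Skil, the SMAD co-repressor SnoN, went from 10.81, 10.81 and 10.36 to 10.3, 10.15 and 10.1, and fell by 0.48 ± 0.11, again with no overlap. The co-repressor Ski fell by 0.20 ± 0.05 and the ubiquitin ligase Smurf2 fell by 0.19 ± 0.04, and the other feedback inhibitors were not called. Smad7, the best known inhibitory SMAD, was not called, at -0.07 ± 0.15.

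On the receptor side 6 of 11 members fell. The type I receptor Tgfbr1 had levels of 11.85, 11.81 and 11.61 in controls and 11.46, 11.35 and 11.27 in knockouts, with no overlap, and fell by 0.39 ± 0.08 (adjusted p 0.00379). Acvr1b, a type I receptor for activins, fell by 0.38 ± 0.07. The coreceptor endoglin, Eng, was the upward call at 0.30 ± 0.07, and this call ended without knockout 3 (adjusted p 0.0605). Of the signal-carrying SMADs, Smad2, Smad3 and Smad4 were not called, at 0.05 ± 0.05, 0.09 ± 0.09 and -0.10 ± 0.05. Smad5, which carries BMP signals, was called lower at -0.19 ± 0.05, but not without control 3 or knockouts 1 or 3 (adjusted p up to 0.0848).

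Ligands and their latency proteins moved in either direction. Tgfb3 rose by 0.33 ± 0.06 and the related ligand Gdf11 by 0.36 ± 0.07. Tgfb1 (0.19 ± 0.07) and Tgfb2 (0.29 ± 0.11) were not called, but Tgfb1 was without control 2 (adjusted p 0.03) and Tgfb2 was without control 3 or mutant control 3 (adjusted p down to 0.0452). Ltbp1 and Ltbp3, which tether latent ligand to the matrix, fell by 0.37 ± 0.07 and fell by 0.32 ± 0.05, with no overlap. Nrros, which anchors latent TGF-beta on myeloid cells, rose by 0.31 ± 0.05. The remaining calls were Ltbp2 at 0.44 ± 0.11, lost without control 3 or knockouts 1 or 2 (adjusted p up to 0.0741), and Ltbp4 at -0.16 ± 0.04, lost without controls 2 or 3 or knockouts 1 or 3 (adjusted p up to 0.0816). Over the pathway, 9 members fell without knockout 3 and 8 rose without mutant control 3.

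**Figure D2:**
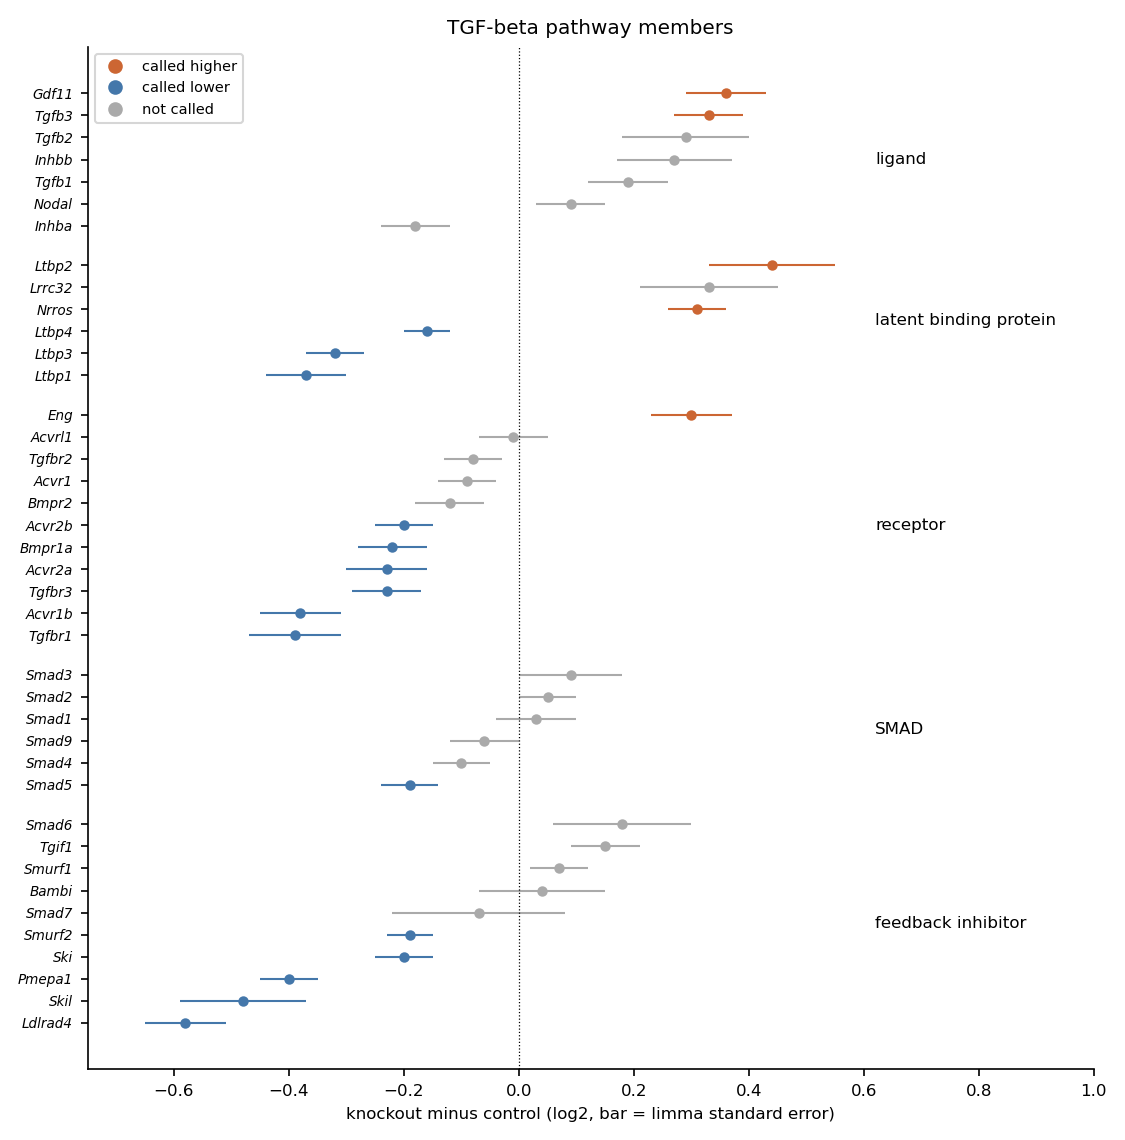
Change of each of the 40 tested TGF-beta pathway members by role, as knockout minus control in log2 units with limma's standard error as a bar (3 arrays per group). Of 11 receptors 6 were called lower, and of 10 feedback inhibitors 5.

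BMP ligands and their antagonists held both larger and opposed changes. Bmp3, a member of the family that opposes bone formation, stood at 11.4, 11.28 and 11.41 in controls and at 10.1, 10.35 and 10.29 in knockouts. With no overlap, it fell by 1.12 ± 0.14 (adjusted p 0.000187), to a level 2.17-fold lower. Gdf6, another ligand, went from 8.52, 8.46 and 8.56 to 9.73, 9.41 and 9.98 and rose by 1.19 ± 0.13. Follistatin, Fst, an activin antagonist, rose by 0.59 ± 0.12, while the antagonists Chrd and Fstl3 fell by 0.33 ± 0.05 and fell by 0.44 ± 0.07. That made 2 of 20 genes of the list higher and 3 lower, beside 9.17% and 9.66% of all genes tested. Id1, which BMP-activated SMADs switch on, was not called (0.39 ± 0.18).

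A list of genes known to be induced by TGF-beta held more rises than falls. Of 20 tested 7 rose and 1 fell, with a median of 0.31. The list leaves out Pmepa1, Ldlrad4 and Skil, which fell and were counted above as feedback inhibitors. These counts therefore depend on how genes were sorted into lists and do not cover all targets of the pathway. Nox4, an NADPH oxidase, was the gene of this list that fell. It went from 12.88, 12.85 and 12.78 in controls to 12.02, 11.93 and 11.96 in knockouts (limma's adjusted p 4.14e-05). Adamtsl2, which binds microfibrils, went the other way, from 11.36, 11.16 and 11.13 to 12.44, 12.49 and 12.4. It rose by 1.23 ± 0.09, and Cilp, a matrix protein first found in cartilage, rose by 0.93 ± 0.16. Ccn2, connective tissue growth factor, lay between 14.27 and 14.39 in controls and between 14.23 and 14.4 in knockouts. Its groups overlapped, at a difference of -0.01 ± 0.08.

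In the contractile apparatus most genes were not called. Those that fell were 2 of 8 thin filament genes, 3 of 10 genes of myosin and its kinases, 5 of 12 of adhesion and cytoskeleton and 2 of 10 transcription factors. Acta2, smooth muscle actin, Tagln, the actin-binding protein SM22, and Cnn1, calponin, were not called, at 0.02 ± 0.04, -0.02 ± 0.04 and 0.06 ± 0.04. Myh11, the myosin heavy chain whose promoter drives the Cre, was at 14.15, 14.1 and 14.1 in controls and 14.02, 14.04 and 13.97 in knockouts. Its groups did not overlap, but it was not called (limma's adjusted p 0.142). With a variance model in limma that followed intensity, Myh11 was called lower at -0.11 (adjusted p 0.0449). Mylk, the main myosin light chain kinase of smooth muscle, was at 12.63, 12.53 and 12.56 in controls and 12.57, 12.6 and 12.54 in knockouts and was not called (adjusted p 0.977). Mylk4, another kinase of this family, was at 13.43, 13.41 and 13.43 in controls and at 12.14, 12.2 and 12.01 in knockouts. This gap was far wider than the spread within either group, and Mylk4 fell by 1.31 ± 0.08 (adjusted p 1.39e-06). Cspg4, the mural cell proteoglycan NG2, fell by 0.59 ± 0.08, the scaffold protein Pdlim7 fell by 0.43 ± 0.07, and caldesmon, Cald1, fell by 0.28 ± 0.06. Actg2, the enteric smooth muscle actin, rose by 0.31 ± 0.05 as the 1 upward call. In total 12 of 40 fell, with a median of -0.04, and this count was 7 without control 2 and 7 without knockout 1. In these bulk samples, fewer cells of a type and less RNA per cell cannot be told apart.

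Integrins, which bind smooth muscle to its matrix, were lower more often than higher. Of 16 tested 7 fell and 3 rose. Itgb3, a subunit of the vitronectin receptor, was at 11.53, 11.56 and 11.82 in controls and at 10.75, 10.89 and 10.8 in knockouts. It fell by 0.82 ± 0.10 (adjusted p 0.000208). Itga7, a laminin receptor subunit, fell by 0.73 ± 0.07 and Itga9, a tenascin receptor subunit, fell by 0.54 ± 0.08, both with no overlap. The collagen receptor subunits Itga11 and Itga2 rose by 0.75 ± 0.08 and 0.45 ± 0.07, and Itga6 was called at 0.48 ± 0.14 but not without controls 1 or 3 or knockout 1 (adjusted p up to 0.114). With laminins and nidogen, the whole list had 9 lower and 4 higher of 27. The lower count was 4 without control 3, 5 without knockout 1 and 4 without knockout 3, and the higher count was 2 without control 1 and 2 without knockout 1. Nid1, the basement membrane linker nidogen, was the other upward call at 0.19 ± 0.06, lost without controls 1 or 2, any knockout, any mutant control or mutant knockouts 1 or 3 (adjusted p up to 0.186).

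Elastin was higher in knockouts. Eln, the core of elastic fibres, stood at 13.48, 13.57 and 13.81 in controls and 14.08, 14 and 14.11 in knockouts. It rose by 0.44 ± 0.10 (adjusted p 0.00662) with no overlap, although control 3 came close to the knockouts. Fbln2, fibulin 2, rose by 0.79 ± 0.11 and the cross-linking oxidase Loxl4 rose by 0.51 ± 0.08, while Emilin1, an elastic fibre glycoprotein, fell by 0.28 ± 0.06. Fbln5 and Lox, which take part in assembly and cross-linking, were not called, at 0.05 ± 0.06 and 0.15 ± 0.10. Of 15 elastic fibre genes 5 rose and 2 fell, and 3 rose without control 1, without control 2 or without knockout 3. The other calls were Mfap2 (0.43 ± 0.11), lost without controls 1 or 2 or knockout 3 (adjusted p up to 0.0563), Loxl1 (0.19 ± 0.06), lost without controls 1 or 2, any knockout, mutant control 2 or mutant knockout 2 (adjusted p up to 0.137), and Loxl3 (-0.19 ± 0.05), lost without controls 2 or 3 or knockout 3 (adjusted p up to 0.111).

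Calls among the collagens went in both directions. Of 11 fibrillar members 3 rose, as did 3 of 14 fibril-associated and type VI members, and the others of these types were not called. 4 of 11 basement membrane and network members fell and 2 rose, and no difference between the types was tested. Col8a1, one of those that rose and a short-chain collagen of the vessel wall, was at 10.17, 10.55 and 10 in controls and 12.01, 11.88 and 11.74 in knockouts. It was 3.11-fold higher (change 1.64 ± 0.20, adjusted p 0.000195) with no overlap. Col12a1, which decorates collagen fibrils, went from 8.81, 8.81 and 9.18 to 10.27, 10.21 and 9.96. Col15a1, of the basement membrane zone, went from 12.79, 12.84 and 12.78 down to 12.23, 12.19 and 12.17. Both differences were larger than the spread within the groups. Col1a1, a main fibrillar chain, rose by 0.34 ± 0.07 and Col4a3 rose by 0.27 ± 0.06, while Col4a2 fell by 0.49 ± 0.08 and Col18a1 fell by 0.33 ± 0.07. Col4a6 was called at -0.25 ± 0.07, but not without controls 1 or 2 or knockouts 1 or 3 (adjusted p up to 0.114). Over all 36 collagens 8 rose and 4 fell, and the median was 0.07.

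Enzymes and partners of collagen were also unequal. Cthrc1, a secreted protein of injured arteries, was at 8.83, 8.96 and 8.94 in controls and 10.94, 10.58 and 10.62 in knockouts, 3.5-fold higher with an adjusted p of 1.39e-06. P4ha3, a proline hydroxylase subunit, went from 7.86, 8.42 and 7.68 to 9.83, 9.3 and 9.87, and Pcolce, which speeds the trimming of procollagen, rose by 0.46 ± 0.07. In the other direction P3h2, a hydroxylase that acts on basement membrane collagen, went from 11.76, 11.84 and 11.54 to 10.84, 10.85 and 10.81. It fell by 0.88 ± 0.12, and none of these genes had overlapping groups.

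Acan, aggrecan, a large proteoglycan that binds hyaluronan, had the largest decrease of the genes that encode protein. It had levels of 10.95, 11.39 and 10.85 in controls and 9.81, 9.79 and 9.59 in knockouts and was 2.53-fold lower (adjusted p 0.000518). The groups were well apart. Vcan, versican, the related proteoglycan of the media, was not called (-0.11 ± 0.08). Among small proteoglycans that coat collagen fibrils, Lum rose by 0.51 ± 0.08 and Podn rose by 0.38 ± 0.07, and Ecm2 fell by 0.53 ± 0.07. The hyaluronan receptor Cd44 rose by 0.50 ± 0.06. In all 5 of 29 proteoglycan and hyaluronan genes rose and 4 fell, with Cspg4 of the contractile genes among the latter. The other calls were Fmod (0.42 ± 0.11), lost without control 3 or knockout 3 (adjusted p up to 0.066), Hspg2 (-0.29 ± 0.08), lost without controls 1 or 3 or knockouts 1 or 3 (adjusted p up to 0.0974), and Epyc (0.61 ± 0.19), lost without any control, knockouts 2 or 3, mutant control 2 or any mutant knockout (adjusted p up to 0.172).

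Matricellular proteins, which signal from the matrix without building its scaffold, held several of the largest increases. Thbs1, thrombospondin 1, an activator of latent TGF-beta, was at 11.23, 11.55 and 11.61 in controls and 13.34, 13.13 and 13.5 in knockouts. It was 3.63-fold higher (adjusted p 0.000215) with no overlap. Thbs4 rose by 1.02 ± 0.21, and the CCN proteins Ccn4 and Ccn5 rose by 1.11 ± 0.11 and 0.94 ± 0.13. Tenascin X, Tnxb, fell by 0.72 ± 0.13, thrombospondin 3, Thbs3, fell by 0.34 ± 0.07, and Sparcl1 fell by 0.20 ± 0.04. Periostin, Postn, and fibronectin, Fn1, were not called, at -0.05 ± 0.04 and 0.15 ± 0.06. Of 21 tested 5 rose and 3 fell. Smoc2, the remaining rise, was called at 0.28 ± 0.07, but not without control 2 or knockout 3 (adjusted p up to 0.0625).

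Of 51 proteases and inhibitors 16 rose and 5 fell. Timp1, which blocks metalloproteinases, was at 10.24, 10.62 and 10.38 in controls and 12.04, 12.09 and 11.74 in knockouts (change 1.54 ± 0.13, adjusted p 1.16e-05). Serpina3n, a serine protease inhibitor, went from 11.62, 11.54 and 11.36 to 13.27, 13.3 and 13.08, 3.27-fold higher. Both inhibitors had groups far apart. Of the metalloproteinases, Mmp2 and Mmp19 rose by 0.39 ± 0.07 and 0.78 ± 0.10, while Mmp9 fell by 0.39 ± 0.08 and Mmp17 fell by 0.63 ± 0.07. The other decreases were in Adamts6, Adamts9 and Adamts10, at -0.49 ± 0.12, -0.49 ± 0.11 and -0.34 ± 0.07. Cathepsins, the lysosomal proteases, had 5 of 9 higher, led by Ctss, which macrophages make, at 1.35 ± 0.09. The others were Ctsk, Ctsc, Ctsh and Ctsz, of which the last lay near the threshold, at 0.16 with limma's adjusted p = 0.0445. Macrophage markers were higher in the same arrays, as given next, and their part in these changes was not tested.

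Macrophage genes were higher in knockouts. Of 32 tested markers 27 rose, the other 5 were not called, and the median was 0.9. The summed intensity of the list was 30072 to 33031 in controls and 47944 to 51815 in knockouts. Fcrls, an Fc receptor-like protein, was at 8.42, 8.47 and 8.76 in controls and 10.3, 10.37 and 10.47 in knockouts. Adgre1, which encodes F4/80, went from 9.09, 9.23 and 9.31 to 10.49, 10.31 and 10.5, and Csf1r, the receptor for macrophage colony-stimulating factor, from 10.17, 10.07 and 10.3 to 11.2, 11.05 and 11.25. In each of them the knockouts lay apart from the controls (adjusted p 1.04e-06, 2.91e-06 and 1.49e-05). The lipid receptor Trem2, the mannose receptor Mrc1 and the oxidase subunit Cybb rose by 0.76 ± 0.06, 0.94 ± 0.14 and 1.08 ± 0.11. Another 5 of the 39 markers listed, Aif1, Cd5l, Clec4n, Clec7a and Fcgr4, lay below the intensity filter.

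Antigen presentation and complement genes moved in the same direction. Of 6 MHC class II genes 5 rose, namely H2-Aa, H2-Ab1, H2-Eb1, H2-DMa and the invariant chain Cd74. H2-Ab1 was at 10.14, 10.41 and 10.04 in controls and 11.21, 11.09 and 11.52 in knockouts (1.08 ± 0.17), and H2-DMa, the smallest of the rises, was at 0.64 ± 0.13. Of 14 complement genes 11 rose, with a median of 0.71. C1qa, a chain of the recognition molecule C1q, stood at 9.83, 9.84 and 10.04 in controls and 10.98, 10.85 and 11.12 in knockouts. No array of either group crossed over. C4b and complement factor B, Cfb, rose by 1.05 ± 0.09 and 0.79 ± 0.08, and the receptors C3ar1 and C5ar1 rose by 1.16 ± 0.12 and 0.80 ± 0.13. The macrophage markers moved with these genes by the values above, and their part in the result was not tested.

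Lymphocyte, mast cell and neutrophil markers gave no call. Of 35 listed, 13 were bright enough to test, and limma called 0 of them, with 2 at an unadjusted p under 0.05. Cd3e of T cells was at 0.11 ± 0.17. Cpa3 of mast cells had levels of 7.32, 6.88 and 7.88 in controls and 7.7, 7.98 and 9.56 in knockouts. Knockout 3 stood far above the rest there (1.05 ± 0.46, adjusted p 0.133). The summed intensity of the list was 4561 to 4980 in controls and 5017 to 5800 in knockouts.

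Among chemokines 7 of 12 CC genes and 5 of 8 CXC and CX3C genes rose, and the others were not called. With receptors, interleukins, TNF family genes and colony factors, 17 of 36 rose, 19 were not called, and another 14 lay below the intensity filter and were not tested. Ccl8, a monocyte attractant, was at 6.67, 6.86 and 7.05 in controls and 8.58, 8.44 and 9.16 in knockouts (adjusted p 1.16e-05). All 3 controls lay below 7.31, the filter level that a gene had to pass on its mean over the 12 arrays, so no exact size is given for this rise. Cx3cl1, fractalkine, which vascular cells display, went from 9.06, 9.36 and 9.21 to 10.22, 10.13 and 10.08. Both genes had separate groups. Ccl2, the main monocyte attractant of the vessel wall, rose by 0.98 ± 0.08 and Cxcl16, a scavenger receptor and chemokine, rose by 0.97 ± 0.13. Tnfrsf11b, the decoy receptor osteoprotegerin, went from 9.93, 9.9 and 9.98 to 11.05, 11.09 and 11.16. Il1b, a cytokine of activated macrophages, was not called (0.03 ± 0.10). The macrophage markers given above moved with the chemokines too, and their part was not tested.

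Interferon-induced genes were called in 9 of 26, but the count was 1 without control 1, 2 without control 2, 1 without knockout 1, 3 without knockout 3 and 5 without mutant knockout 1. Their mean deviation from the mean of the 6 arrays was 0.48 in knockout 1, -0.05 in knockout 2 and 0.14 in knockout 3. Knockout 1 was thus the highest array and knockout 2 close to the mean. Psmb9, a subunit of the immunoproteasome, rose by 0.36 ± 0.05 and was called under every alternative tried.

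**Figure D3:**
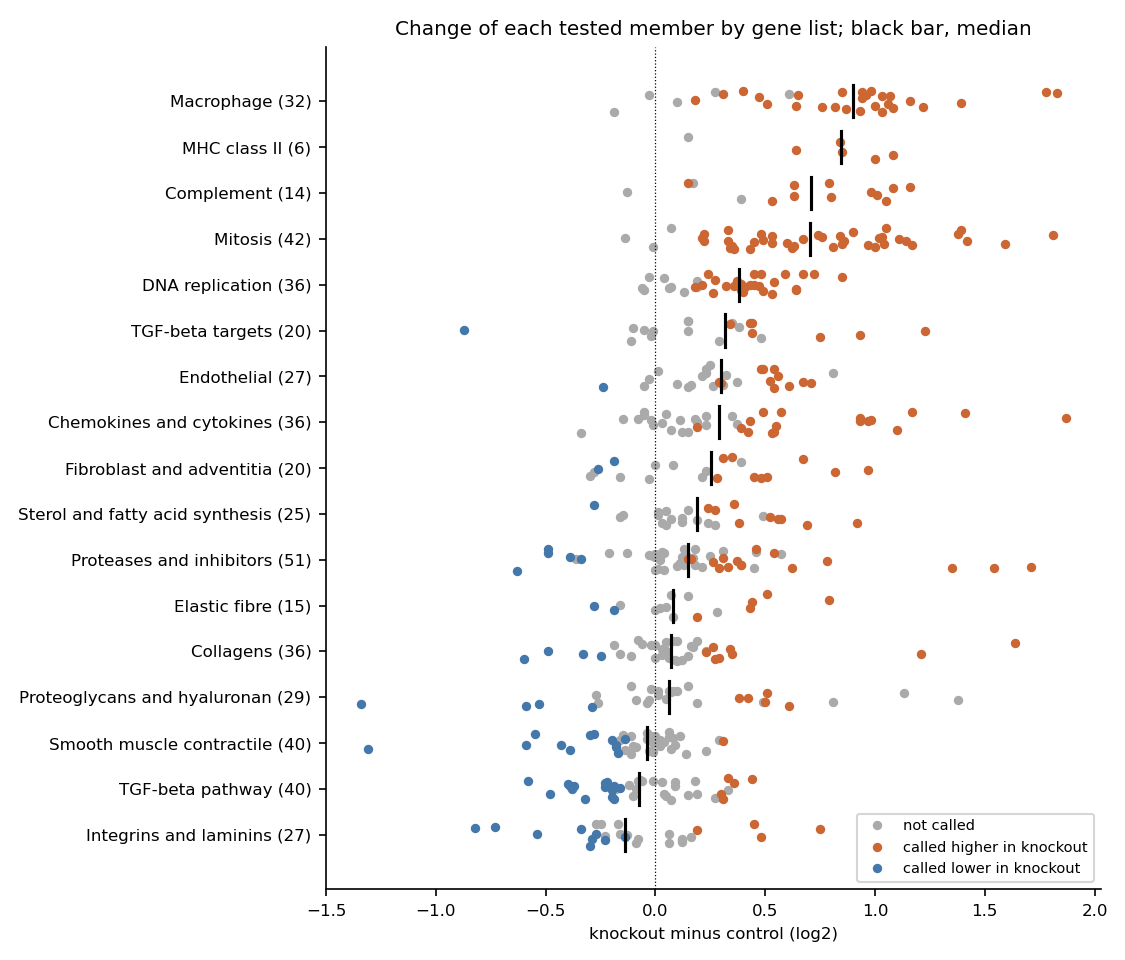
Change of each tested member of 17 gene lists, as knockout minus control in log2 units, with members called higher in orange, called lower in blue and not called in grey, and the median as a black bar. Macrophage and mitosis members lie mostly to the right (medians 0.90 and 0.70), and the integrin and laminin median lies at -0.14.

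Genes of cell division were higher. Of 42 mitosis genes 39 rose, with a median of 0.7, and of 36 DNA replication genes 27 rose, with a median of 0.38. Another 10 of the 53 mitosis genes listed and 4 of the 41 replication genes listed lay below the intensity filter. That filter used the mean over the 12 arrays, so dim members could pass it through the arrays in which they were high. Ccna2, cyclin A2, was at 7.76, 7.66 and 7.98 in controls and 9.57, 9.48 and 9.81 in knockouts, 3.52-fold higher. Mki67, the proliferation antigen Ki-67, went from 7.86, 7.93 and 7.75 to 9.2, 9.09 and 9.38, and Top2a, which untangles replicated DNA, from 7.2, 7.59 and 7.36 to 8.72, 8.61 and 8.98. Groups were apart in all 3 genes (adjusted p 4.46e-05, 0.000155 and 0.000122). Foxm1, a transcription factor of G2 and M phase, rose by 0.97 ± 0.10, the mitotic kinase Cdk1 rose by 1.17 ± 0.15 and the condensin subunit Ncaph rose by 1.03 ± 0.07. Among replication genes, the DNA polymerase subunit Pole rose by 0.67 ± 0.07, the histone chaperone Asf1b rose by 0.85 ± 0.10 and the helicase subunit Mcm2 rose by 0.54 ± 0.07. Many of these genes are dim in the aorta, as 13 mitosis members, 11 of them called, and 21 replication members, 16 of them called, pass a filter at the median intensity. The macrophage markers moved in the same direction, and which cells divide was not measured.

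Regulators of cell cycle entry were mixed. Ccnd1, cyclin D1, which drives entry, rose by 0.67 ± 0.12. The CDK inhibitor Cdkn2c rose by 0.39 ± 0.08, and Cdkn1b, which encodes p27, was not called (-0.10 ± 0.06). Of the p53 targets, Phlda3 rose by 0.41 ± 0.07 and Perp fell by 0.55 ± 0.13.

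Promoters of some cell division genes are shown for a pair of motifs known from this gene class. In mammals such promoters often carry a CCAAT box and a CHR, the letters TTTGAA. Each stretch holds the 150 bases before the RefSeq start (GRCm38.p6), 5′ to 3′ on the gene's strand, with matches on either strand in capitals. The 4 mitotic genes shown were chosen because their stretches hold both motifs, as 15 of the 37 such stretches of mitosis genes did, while 10 held neither. For Cdk1 (chr10:69352913-69353062, minus strand), Top2a (chr11:99024190-99024339, minus strand), Kif11, a spindle motor (chr19:37376232-37376381, plus strand), and Mki67 (chr7:135716380-135716529, minus strand) the capitals mark CCAAT and TTTGAA. For Mcm5, a replication helicase subunit (chr8:75109359-75109508, plus strand) that rose by 0.49 ± 0.06, they mark CCAAT and the E2F motif TTTGGCGC. Of the replication genes searched in this way Mcm5 alone had an E2F match, as the stretches of Uhrf1, Mcm10 and Mcm2 held none.
Cdk1 promoter: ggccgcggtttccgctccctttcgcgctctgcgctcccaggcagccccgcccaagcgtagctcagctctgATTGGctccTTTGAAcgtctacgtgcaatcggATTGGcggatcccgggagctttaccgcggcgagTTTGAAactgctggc
Top2a promoter: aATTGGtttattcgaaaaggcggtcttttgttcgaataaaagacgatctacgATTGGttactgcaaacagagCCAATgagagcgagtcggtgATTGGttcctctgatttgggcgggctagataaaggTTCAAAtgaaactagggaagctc
Kif11 promoter: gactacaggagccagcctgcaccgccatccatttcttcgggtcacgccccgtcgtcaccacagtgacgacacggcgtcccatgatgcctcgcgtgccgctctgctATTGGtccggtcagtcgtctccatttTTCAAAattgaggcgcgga
Mki67 promoter: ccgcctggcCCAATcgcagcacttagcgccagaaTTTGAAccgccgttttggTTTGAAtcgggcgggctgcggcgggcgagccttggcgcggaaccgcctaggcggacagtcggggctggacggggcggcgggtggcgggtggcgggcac
Mcm5 promoter: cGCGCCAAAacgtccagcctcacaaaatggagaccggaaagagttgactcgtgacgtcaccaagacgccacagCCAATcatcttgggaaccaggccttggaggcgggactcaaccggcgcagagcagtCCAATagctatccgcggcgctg

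Windows of 300 bases, 250 before to 50 after the start, were available for 11759 of the 14944 genes, as 14842 windows, since a gene can have several starts. TTTGAA occurred in 26 of 37 windows of mitosis genes (70.3%), against 12.1% of all windows. CCAAT occurred in 70.3% of them, against 36.5% of all, and both together in 64.9% against 4.66%. Among the 38 windows of replication genes the E2F motifs TTTGGCGC and TTTCCCGC occurred in 15.8% and 13.2%, against 0.876% and 1.77% of all. Shares over all called genes lay much closer together. TTTGAA was in 15.2% of windows of upward and 10.4% of downward calls, and CCAAT in 38.6% and 35.2%. The SMAD motif CAGACA was in 17.2% of windows of upward and 16.8% of downward calls, against 17.3% of all. The palindromic SMAD motif GTCTAGAC was in 0.15% and 0.192%, against 0.276%. The AP-1 motif TGANTCA was in 7.42% and 4.42%, against 5.54%. The CArG box, bound by serum response factor, was in 15.9% of 44 windows of contractile genes against 1.33% of all. Both strands were searched. A CArG box can hold CCAAT and then counts for both, no other motif is contained in another, and matches can share end letters. A match describes the sequence without showing a binding site.

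Other cell types of the aorta gave smaller shifts. Of 27 endothelial genes 11 rose and 1 fell, with a median of 0.3. Icam1 and Vcam1, to which leukocytes adhere, rose by 0.67 ± 0.09 and 0.56 ± 0.09. Nos3, endothelial nitric oxide synthase, stood at 10.07, 10.02 and 10.11 in controls and 10.46, 10.53 and 10.84 in knockouts, with no overlap. Pecam1, a general endothelial marker, was not called (0.15 ± 0.10). The summed intensity of the list was 35423 to 38734 in controls and 43227 to 52757 in knockouts. The downward call was the transcription factor Erg at -0.24 ± 0.06, lost without controls 2 or 3 or knockouts 1 or 3 (adjusted p up to 0.0651).

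Fibroblast and adventitial genes had 9 of 20 up and 2 down, and their defining marker Pdgfra was not called (-0.03 ± 0.06). S100a4, a calcium-binding protein of fibroblasts and leukocytes, was at 9.92, 9.89 and 9.91 in controls and 10.7, 10.66 and 10.83 in knockouts, with a tight spread in both groups. The transcription factor Tcf21 rose by 0.97 ± 0.15 and the surface protein Thy1 rose by 0.67 ± 0.11. Among the other upward calls, Pi16 was lost without controls 1 or 2 or any knockout (limma's adjusted p up to 0.0895). Dpt was lost without controls 1 or 2, knockouts 1 or 3 or mutant control 2 (limma's adjusted p up to 0.162). The downward calls were the actin-severing protein Gsn (-0.26 ± 0.08), lost without any control or any knockout (adjusted p up to 0.114), and the receptor Pdgfrb (-0.19 ± 0.06), lost without controls 2 or 3, any knockout, mutant control 2 or mutant knockouts 1 or 2 (adjusted p up to 0.151). The summed intensity of this list was 82897 to 91398 in controls and 93311 to 96696 in knockouts, and its part in the matrix changes was not tested.

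Fat and heart tissue can adhere to a dissected ascending aorta. Fat markers overlapped, with a summed intensity of 22258 to 27779 in controls and 23652 to 27885 in knockouts, and Adipoq, adiponectin, was not called (0.24 ± 0.39). Pparg, a regulator of fat cell formation, rose by 0.69 ± 0.12, and the brown fat genes Cidea and Dio2 rose by 0.74 ± 0.16 and 0.86 ± 0.16, while the brown fat regulator Prdm16 fell by 0.50 ± 0.09. Cardiac muscle markers had a summed intensity of 12788 to 14646 in controls and 17390 to 19703 in knockouts. Phospholamban, Pln, which restrains the calcium pump in heart and smooth muscle, rose by 0.87 ± 0.18, and the calcium release channel Ryr2 fell by 0.86 ± 0.12. The cardiac myosin heavy chain Myh6 was not called (0.47 ± 0.22). Cardiac actin, Actc1, was called at 1.00 ± 0.26, but not without controls 1 or 2 or knockouts 1 or 3 (adjusted p up to 0.0762), and cardiac troponin T, Tnnt2, at 0.62 ± 0.16, but not without control 3 or knockout 1 (adjusted p up to 0.064). With Pln these made 3 of 17 markers up and, with Ryr2, 1 down, while 15 of the 17 lay above 0, and the part of cardiac muscle in the other results was not tested.

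Enzymes that make cholesterol were higher. Of 16 sterol genes tested 9 rose, the other 7 were not called, and all 16 changes were above 0. Idi1, which makes isoprene units, was at 9.84, 9.66 and 9.32 in controls and 10.35, 10.64 and 10.59 in knockouts. Sqle, squalene epoxidase, went from 10.11, 9.9 and 9.62 to 10.38, 10.62 and 10.7, and the farnesyl synthase Fdps from 10.7, 10.56 and 10.33 to 10.9, 11.14 and 11.09. In all 3 genes control 3 was the lowest control and knockout 1 the lowest knockout, and the groups did not overlap. Their rises were 0.92 ± 0.15, 0.69 ± 0.14 and 0.52 ± 0.10. Of 9 fatty acid genes the malic enzyme Me1 alone was called (-0.28 ± 0.05), and Fasn, fatty acid synthase, was not (0.12 ± 0.14). In the Fbn1 C1039G/+ arrays the sterol and fatty acid list had a median change of -0.03, against 0.19 with normal Fbn1, and this difference between medians was not tested.

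Genes of vascular tone included the largest increase of all genes tested. Ddah1, which clears an inhibitor of nitric oxide synthases, was at 8.11, 8.27 and 8.7 in controls and 10.65, 10.19 and 10.84 in knockouts, 4.59-fold higher (adjusted p 9.7e-05). With Nos3, the phosphodiesterase Pde5a (0.21 ± 0.05) and cytoglobin, Cygb (0.24 ± 0.05), 4 of 13 nitric oxide genes rose. Ephx2, soluble epoxide hydrolase, which breaks down vasodilator lipids, went from 9.37, 9.22 and 8.71 to 10.86, 10.44 and 10.88. Ramp1, a subunit of the receptor for the dilator peptide CGRP, went from 10.8, 11.01 and 11.02 down to 9.92, 10 and 10.08 (adjusted p 1.69e-05). The groups of these genes were apart.

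Receptors for vasoactive agents split further. Of 33 tested 11 rose, or 6 without knockout 3, and 4 fell. Among natriuretic peptide receptors the clearance receptor Npr3 rose by 0.80 ± 0.07 while the signalling receptor Npr1 fell by 0.44 ± 0.07. The purine channel P2rx1, the adrenergic receptor Adra1b and the angiotensin receptor Agtr1a rose by 0.85 ± 0.13, 0.65 ± 0.07 and 0.42 ± 0.08. Besides Npr1 and Ramp1, the serotonin receptors Htr1b and Htr2a fell by 0.85 ± 0.15 and fell by 0.75 ± 0.17. Glp1r, the incretin receptor, was at 7.6, 7.5 and 7.56 in controls and 9, 9.18 and 9.48 in knockouts, and rose by 1.66 ± 0.12.

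Growth and patterning signals changed gene by gene. Igf1, insulin-like growth factor 1, went from 11.04, 10.78 and 11.34 to 12.25, 12.22 and 12.5, and rose by 1.27 ± 0.12. Vegfd, a lymphatic growth factor, went from 10.54, 10.13 and 10.46 to 11.52, 11.56 and 11.62, with the knockouts close together. Meox1, a homeobox factor, was at 8.18, 8.44 and 8.38 in controls and 9.88, 9.83 and 9.79 in knockouts (adjusted p 1.56e-07). Fgf1 fell by 0.34 ± 0.07, the EGF family ligand Hbegf fell by 0.64 ± 0.14 and Pdgfa fell by 0.23 ± 0.05. The Wnt antagonist Frzb rose by 1.33 ± 0.12 while Wif1, another, fell by 0.84 ± 0.15. Heyl, a Notch target of vascular muscle, went from 12.4, 12.47 and 12.48 down to 11.55, 11.65 and 11.61, and the receptor Notch3 was not called (0.13 ± 0.08). Runx1, a factor of blood and bone cells, rose by 0.73 ± 0.07, Myc rose by 0.97 ± 0.16 and Egr2 rose by 0.89 ± 0.20. Fos, an early response gene, differed by 0.51 ± 0.50 with overlapping groups.

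Since knockouts alone had tamoxifen, genes known to respond to estrogen receptor ligands were listed too. Of 14 tested 5 rose and 1 fell. Ghr, the growth hormone receptor, was at 11.44, 11.29 and 11.29 in controls and 12.01, 11.92 and 12.03 in knockouts, with no overlap. Cyp1b1, which hydroxylates estrogens, rose by 0.66 ± 0.12, and Ephx2 and Ccn5, given above, were among the rises. Pgr, the progesterone receptor and a classical estrogen target, fell by 0.42 ± 0.08, and Esr1, the estrogen receptor, was not called (0.07 ± 0.06). Ugdh was called at 0.16 ± 0.04, but not without any control or knockouts 1 or 2 (adjusted p up to 0.0903).

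MicroRNA genes are read on this array through their precursor transcripts, and Mir140 had the largest decrease of all genes tested. The microRNA genes were chosen after their values were seen. Each gene has a single value, from its precursor, so the array does not tell the mature arms apart. For Mir140, Mir365-1, Mir31 and Mir100, which had the smallest adjusted p of these genes, the mature forms given by RefSeq (GRCm38.p6) are listed to show which sequences the precursors hold, with the seed, bases 2 to 8, in capitals. RefSeq held 118 of the 134 tested microRNA genes. The forms lie at chr8:107551288-107551308, chr16:13453855-13453877, chr16:13453895-13453916, chr9:41531437-41531458 and chr9:41531471-41531492 on the plus strand and at chr4:88910614-88910635 and chr4:88910577-88910599 on the minus strand. For Mir140 only the 3p form is listed, so the other arm of its precursor is not shown. The listed forms share no seed.
miR-140-3p: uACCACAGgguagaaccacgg
miR-365-1-5p: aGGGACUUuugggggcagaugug
miR-365-3p: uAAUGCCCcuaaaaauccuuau
miR-100-5p: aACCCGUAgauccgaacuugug
miR-100-3p: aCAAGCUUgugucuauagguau
miR-31-5p: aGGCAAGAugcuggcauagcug
miR-31-3p: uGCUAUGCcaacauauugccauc

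Mir140 was at 9.4, 9.47 and 9.93 in controls and 7.93, 7.82 and 7.95 in knockouts, a fall by 1.70 ± 0.15 (adjusted p 1.93e-05). Wwp2, the ubiquitin ligase gene that hosts it, went from 11.99, 12.16 and 12.19 to 11.24, 11.33 and 11.11 and fell by 0.89 ± 0.08. Neither gene had overlapping groups. Mir365-1 went from 9.88, 9.86 and 10.23 to 8.99, 8.8 and 9.06, Mir100 fell by 0.69 ± 0.14 and Mir31 fell by 0.44 ± 0.08. Mir143 and Mir145a, which are abundant in smooth muscle, were called at -0.64 ± 0.17 and -0.35 ± 0.09, the former not without control 3 or knockouts 1 or 3 (adjusted p up to 0.0801) and the latter not without control 3 or knockout 1 (adjusted p up to 0.0635). Of the 134 microRNA genes 13 fell (9.7%, beside 9.66% of all genes tested) and 1 was called upward (0.746%, beside 9.17%). The upward call was Mir193a at 0.18 ± 0.05, lost without controls 1 or 2 or knockout 1 (adjusted p up to 0.121).

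Some remaining large decreases lie outside these groups. Sphkap, an anchor for protein kinase A, was at 10.12, 10.71 and 9.23 in controls and 8.81, 9.04 and 8.26 in knockouts. Its values spread widely in both groups, without overlap (adjusted p 0.0103). Pnldc1, an RNA exonuclease, fell by 1.16 ± 0.08 and Plaat1, a phospholipase and acyltransferase, fell by 0.99 ± 0.07.

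The knockout effect was next set against that in the Fbn1 C1039G/+ arrays, which have their own controls. The difference of both effects was called by limma in 221 genes (1.48%), of which 164 were also called with normal Fbn1. Of these, 126 rose with normal Fbn1 and had a smaller or opposite change in the mutant, and 3 had a larger rise there. Another 26 fell with normal Fbn1 and had a smaller or opposite change in the mutant, and 9 had a larger fall. Picking genes by their call with normal Fbn1 itself favours a smaller change in the mutant, so neither split was read as a result. The 221 became 107 without knockout 1, 109 without knockout 3 and 118 when mutant control 2 was left out. Leaving out mutant knockout 1 gave 142, and leaving out mutant knockout 2 gave 128. With array weights the count rose to 469. In all, 914 genes were called in the same direction in both genotypes and 15 in opposite directions.

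Cell division, collagen and elastin genes were among those that differed. Ccnb2, cyclin B2, rose by 1.59 ± 0.14 with normal Fbn1 and was at 0.23 ± 0.14 in the mutant, a difference of -1.36 ± 0.19 (adjusted p 0.00474). For Eln the changes were 0.44 ± 0.10 with normal Fbn1 and -0.49 ± 0.10 in the mutant, a difference of -0.94 ± 0.14 (adjusted p 0.00537). Fgf1 had opposite signs as well, at -0.34 ± 0.07 and 0.34 ± 0.07, a difference of 0.68 ± 0.10. Col15a1 was lower in both, at -0.60 ± 0.07 and -1.39 ± 0.07, and more so in the mutant (difference -0.79 ± 0.10). Mylk4 was at -1.31 ± 0.08 and -1.52 ± 0.08, and its difference of -0.21 ± 0.11 was not called (adjusted p 0.36). For Vsig4, a complement receptor of tissue macrophages, the changes were 1.78 ± 0.28 and 1.79 ± 0.28.

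**Figure D4:**
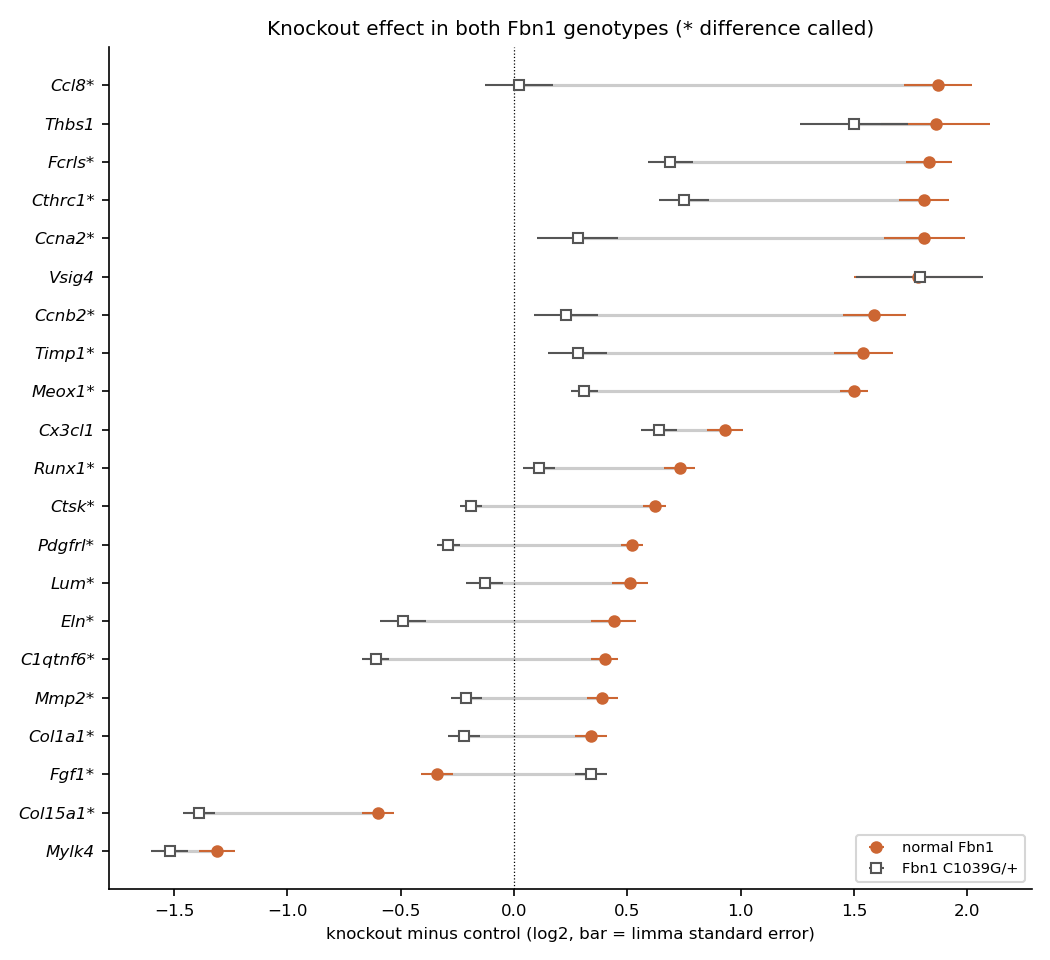
Knockout minus control in log2 units for 21 genes with normal Fbn1 (filled circles) and with the C1039G/+ allele (open squares), each from 3 arrays per group with limma's standard error as a bar. An asterisk marks a called difference, as for Eln (0.44 and -0.49), and Mylk4 (-1.31 and -1.52) has none.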

How the data were processed

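Ascending aorta RNA was measured on 12 Affymetrix whole-transcript arrays. Per the submitters' processing notes, the authors ran RMA (background correction, quantile normalization and probe set summary) in Partek 6.4. The deposited values are intensities on a linear scale, as their range shows (array medians near 300, maxima of 30090 to 32115 in the 6 arrays with normal Fbn1), so log2 was taken first. Of 35556 probe sets, 21789 had 1 gene symbol, 1621 several and 12146 none, per the platform annotation given. The symbol was checked by Entrez ID for 21698. For each of 19938 genes the brightest probe set on average was kept, and 14944 above the 25th percentile of intensity (log2 7.31, intensity 159) were tested. The filter used the mean over all 12 arrays, so a dim gene could pass through the arrays in which it was high.

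limma 3.58.1 in R 4.3.3 was fitted to all 12 arrays with 1 coefficient per group, so that all groups share the estimate of spread, and p-values were adjusted by Benjamini-Hochberg over all genes. Only Tgfbr2 had an exact permutation test over arrays. The fit was also run on simulated data with independent noise in each gene. Genes on these arrays need not vary independently, so that run does not vouch for the calls. No arrays held identical values. Control and knockout arrays of the same number share only a number in the labels.

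The members and the 44 gene lists were chosen with earlier results of these data known. Named genes were the 15 largest increases and 15 largest decreases with groups apart (predicted genes, smell receptors and microRNAs left out), up to 8 called members of smallest p in each list, the defining members of each list, and the 10 smallest p in the difference of knockout effects. Outside this rule, the microRNA genes, Eif2s3y, Ski, Smurf2, Eng, Gdf11, Ltbp4, Smad5, Col4a6, Epyc, Adamts6, Adamts9, Adamts10, Nid1, Erg, Gsn, Pdgfa and Hbegf were chosen after their values were seen. Promoters and mature microRNAs are from RefSeq (GRCm38.p6). Alternatives changed the filter, the normalization, the pseudocount, the choice of probe set, the variance model and the arrays used. Tools also included Python 3.11.15, pandas 2.3.3, numpy 2.4.6 and matplotlib 3.10.9.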

Additional observations from a re-analysis of the deposited data

Results flagged for a closer look

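The 22 genes given here are among the 221 for which the knockout effect differed between the Fbn1 genotypes by a test of the difference itself, limma's contrast of the effect in C1039G/+ arrays minus that with normal Fbn1 (3 arrays per group, adjusted p under 0.05). Of them 10 were named by the rule, among genes called with normal Fbn1, which itself favours a smaller effect in the mutant. The other 12 were chosen after their values were seen. Differences are given on the log2 scale, and no explanation of them was tested.

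The chemokine, leukocyte and complement genes among them differed downward, which means a less positive effect in the mutant. The difference was -1.85 for Ccl8, -1.14 for Fcrls, -0.79 for Fcgr2b, -0.83 for Nckap1l, -0.85 for Cd84 and -0.70 for C1s1. For Ccl8 and Cd84 the controls with normal Fbn1 lay below the filter level of log2 7.31 (6.67, 6.86 and 7.05, and 7.03, 7.26 and 7.09), so the size of these differences is not exact. Cell division genes differed likewise, by -1.53 for Ccna2 and -1.36 for Ccnb2. Matrix genes and their proteases and inhibitors differed by -0.94 for Eln, -0.57 for Col1a1, -0.63 for Lum, -1.06 for Cthrc1, -1.26 for Timp1, -0.60 for Mmp2 and -0.81 for Ctsk.

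For Col15a1 the difference was -0.79 with a fall in both genotypes. The transcription factors Meox1 and Runx1 differed by -1.19 and -0.62, and the secreted or receptor-like proteins C1qtnf6 and Pdgfrl by -1.01 and -0.80. D17H6S56E-5 differed by -1.40. Fgf1 was the gene with an upward difference, of 0.68.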

How the results depend on the processing

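Of 22 alternatives, 12 left out an array. Of 311 named genes called, 241 were called under every alternative, 70 were not under some, and 0 reversed. With 2814 genes called, leaving out an array gave 1836 (without knockout 3) to 2992. Upward calls ranged from 984 to 1402, downward calls from 798 to 1590, 2-fold rises from 81 to 111 and 2-fold falls from 11 to 15. The 221 called differences of effects became 107 to 202 without an array and 469 with array weights, and the cause was not tested. Tgfbr2 differed by -0.12 to -0.04 over all alternatives (limma adjusted p 0.156 to 0.713). Upward and downward calls numbered 1201 and 1699 after centring arrays on their medians, 990 and 1441 with a filter at the median, and 1514 and 1474 after a further quantile normalization. With only the 6 arrays with normal Fbn1 in the fit, 2465 genes were called, 1238 upward and 1227 downward, and 2290 were shared with the 2814. Calls lost there included Smad5, Ltbp4, Itga6, Nid1, Loxl1, Loxl3, Pdgfrb, Ugdh and Mir193a (limma adjusted p 0.0515 to 0.0848), while Tgfb2 was gained (0.0474). With the replicate number as a block 2595 genes were called, of which 2495 were shared with the 2814. Deviations of same-numbered arrays correlated at 0.06, 0.06 and 0.24, and not every array correlated best with its own number, so the numbers were not taken as pairs. The number of arrays, and signal near background for dim genes, limit what can be called.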

Other observations

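Genes of redox balance and of membrane potential have not been described above. Sod3, the extracellular superoxide dismutase of the vessel wall, fell by 0.33 ± 0.05, while the inducible heme oxygenase Hmox1, the plasma glutathione peroxidase Gpx3 and the peroxidase Prdx1 rose by 0.45 ± 0.08, 0.51 ± 0.11 and 0.32 ± 0.07 (3 arrays per group). Of 32 redox genes 7 rose and 3, Sod3, Nox4 and Nnt, fell, beside 9.17% and 9.66% of all genes tested. The background potassium channel Kcnk3 was at 9.72, 9.87 and 9.84 in controls and 10.32, 10.3 and 10.29 in knockouts and rose by 0.49 ± 0.11, and Kcnmb1, the beta subunit of the large-conductance calcium-activated channel, fell by 0.20 ± 0.04. Cacna2d1, a subunit of voltage-gated calcium channels, fell by 0.43 ± 0.07, and the cation channel Trpm4 fell by 0.31 ± 0.06. In the circadian clock, Tef and Cry2 fell by 0.35 ± 0.05 and fell by 0.33 ± 0.07, and the other 14 of 16 clock genes were not called, with Dbp at -0.01 ± 0.13 and Per2 at -0.21 ± 0.11. The heat shock gene Hspa1a, which responds to handling of tissue, was at 0.40 ± 0.19 and was not called.

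Nnt, a mitochondrial transhydrogenase that is known to carry a deletion in the C57BL/6J substrain, was at 11.29, 11.72 and 11.21 in controls 1 to 3 and at 11.10, 10.33 and 10.37 in knockouts 1 to 3. In the Fbn1 C1039G/+ arrays it was at 10.41, 10.30 and 10.30 in controls and at 11.32, 10.48 and 10.41 in knockouts. The levels thus fell into a higher and a lower range that crossed the groups, with 5 arrays at 11.10 or above and 7 at 10.48 or below. The knockout minus control change with normal Fbn1 was -0.81 ± 0.24, called at an adjusted p of 0.0315 but not without controls 1 or 2 or knockouts 2 or 3 (adjusted p up to 0.122). The cause was not tested.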
